A study of Mus musculus with 6 samples.

Results

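Semaphorins, their plexin receptors and the related plexin domain containing proteins were followed in cells sorted for endothelium from mouse embryos. The genes were chosen by symbol: Sema3 to Sema7 with a letter, Plxna1 to Plxnd1, and Plxdc1 and Plxdc2, read from probe sets of the array that are annotated to 1 gene only. This gave 31 of the 18193 genes measured, namely 20 semaphorins, 9 plexins and 2 Plxdc genes, carried by 75 probe sets, and each gene was read from its probe set with the highest mean over all arrays. The 6 samples came from embryos at day 9.5 of mice of mixed background. Cells that were CD31+ and negative for CD41 and CD45 were sorted from heart tube, caudal-half tissue and yolk sac, with 2 biological replicates per tissue and 1 Affymetrix array per replicate. The tissues were freshly isolated, and the sample descriptions carry the code Wt. CD31 is a surface protein of endothelium, whereas CD41 marks megakaryocytes and the first blood progenitors and CD45 marks leukocytes. The number of embryos behind each sample is not stated in the labels.

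Semaphorins are guidance proteins that share a sema domain. Class 3 members are secreted, classes 4 to 6 span the membrane, and class 7 is tethered to it by a lipid anchor. Most act through plexins, whose cytoplasmic part switches off small GTPases of the Ras family, so that a cell that meets the ligand loosens its adhesions and often turns away. Class 3 ligands mostly need a neuropilin beside the plexin, whereas Sema3e binds Plxnd1 directly. In the embryo these proteins steer axons and neural crest cells as well as growing vessels, and Plxnd1 in endothelium is needed for normal vessel patterning and for the outflow tract of the heart.

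Levels are the authors' RMA values, taken as the natural log of each deposited signal and read as log2, because the highest deposited signal was 2172540 and a 16-bit scanner stops at 65535. Should the signals be linear instead, every difference given here grows by a factor of 1.44, and the limma tests stay as they are. Replicate arrays correlated at r = 0.981 to 0.986 over all probe sets and arrays of different tissues at 0.947 to 0.969. Tissues were compared with limma over all 6 arrays, and a gene was called where the Benjamini-Hochberg adjusted p over all 18193 genes was under 0.05. A level depends on its probe set, so levels are compared between tissues and not between genes. Probe sets for bacterial RNAs (27 of them) lay at 1.33 to 4.03 and describe weak signals. Cells were sorted in bulk, so that fewer cells of a type and less RNA per cell cannot be told apart.

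The sort left markers of other cells that differ between tissues. The 12 endothelial markers averaged 9.14 and 9.24 on the heart tube arrays, 9.87 and 9.93 on the caudal-half arrays and 10.17 and 10.27 on the yolk sac arrays. The heart tube was lower than the caudal-half cells in 5 of them and higher in 1, and lower than the yolk sac in 6. Pecam1, which encodes CD31, passed no test, and Ptprc, which encodes CD45, was within the bacterial range in every tissue. Itga2b, which encodes CD41, was not: it read 6.81 and 6.93 in heart tube cells, 6.80 and 6.42 in caudal-half cells and 8.37 and 8.18 in yolk sac cells, and was called lower in the first pair of tissues than in the yolk sac (-1.41 and -1.67). The 7 measured blood markers averaged 4.88 and 4.90, 5.28 and 5.19, and 5.80 and 5.88 on the arrays of heart tube, caudal-half cells and yolk sac. Of these markers 1, 2 and 2 were called lower in the 3 comparisons. They were Hbb-bh1 in all 3 (-1.46, -3.76 and -2.30) and Itga2b in those against the yolk sac. The 10 cardiomyocyte markers averaged 7.40 and 7.23 in heart tube cells, 4.998 and 5.07 in caudal-half cells and 4.55 and 4.31 in yolk sac cells, with Nkx2-5 within the bacterial range in all 3 tissues. The 8 visceral endoderm markers averaged 4.37 and 4.38 in heart tube cells, 4.65 and 4.72 in caudal-half cells and 10.43 and 10.34 in yolk sac cells. Mesenchymal markers (8 genes) averaged 6.94 and 6.92, 5.70 and 5.66, and 7.47 and 7.34 on the arrays of the heart tube, the caudal-half cells and the yolk sac. Epithelial markers (6 genes) were lowest in the heart tube at 4.59 and 4.84, against 6.93 and 6.70 in the caudal-half cells and 8.14 and 8.15 in the yolk sac. Means of the 8 neural markers lay between 4.20 and 4.97 on all arrays, and those of the 4 measured neural crest markers between 3.89 and 4.72.

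Most of the family did not separate the tissues. Of the 31 genes, 12 passed the test in at least 1 comparison and 19 in none. The heart tube was higher than the caudal-half cells in 3 genes (Sema3a, Sema4d and Plxnc1) and lower in 5 (Sema3g, Sema5b, Sema6d, Sema7a and Plxdc2), where 5.51% of all genes were called, 2.86% as higher and 2.65% as lower. Against the yolk sac it was higher in 3 (Sema3a, Sema4d and Plxna4) and lower in 7 (Sema3g, Sema4b, Sema5b, Sema6a, Sema7a, Plxnd1 and Plxdc2), where 11.8% of all genes were called, 5.14% as higher and 6.67% as lower. Caudal-half cells were lower than yolk sac in 2 genes (Sema6a and Plxnc1) and higher in none, where 9.08% of all genes were called, 4.22% as higher and 4.86% as lower. An unadjusted p under 0.05 in limma was found for 12, 13 and 7 of the 31 genes in the 3 comparisons, and for 3556, 4734 and 4337 of all 18193. The calls at a limma adjusted p under 0.05 covered 25.8%, 32.3% and 6.45% of the members, beside 5.51%, 11.8% and 9.08% of all genes. The members' median differences were -0.29, -0.43 and -0.05, against -0.08, -0.06 and 0.02 over all genes. Any pair of these comparisons shares the arrays of 1 tissue. The genes lower in the heart tube moved with the epithelial markers. Of these, 5 of 6 were lower than in the caudal-half cells and 6 of 6 lower than in the yolk sac. Of the 12 endothelial markers, 5 and 6 were lower as well, and Eng was higher than in the caudal-half cells (0.96). Of the 8 visceral endoderm markers, 1 and 8 were lower and 0 higher. Of the 8 mesenchymal markers, 0 and 4 were lower, and 4 and 2 were higher. Also lower were 1 and 2 of the 7 blood markers and the neural marker Sox2 (-5.36 and -1.76). On that list of 8 neural markers, Tubb3 went the other way (4.29 and 4.88), and 5 and 6 were not called. The part of those markers in these results was not tested. A signal within the bacterial range on all 6 arrays was found for Sema3d, Sema5a and Plxnb3, and on some arrays for Sema3c, Sema4a, Sema4f, Plxna3, Plxna4 and Plxdc1.

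**Figure D1:**
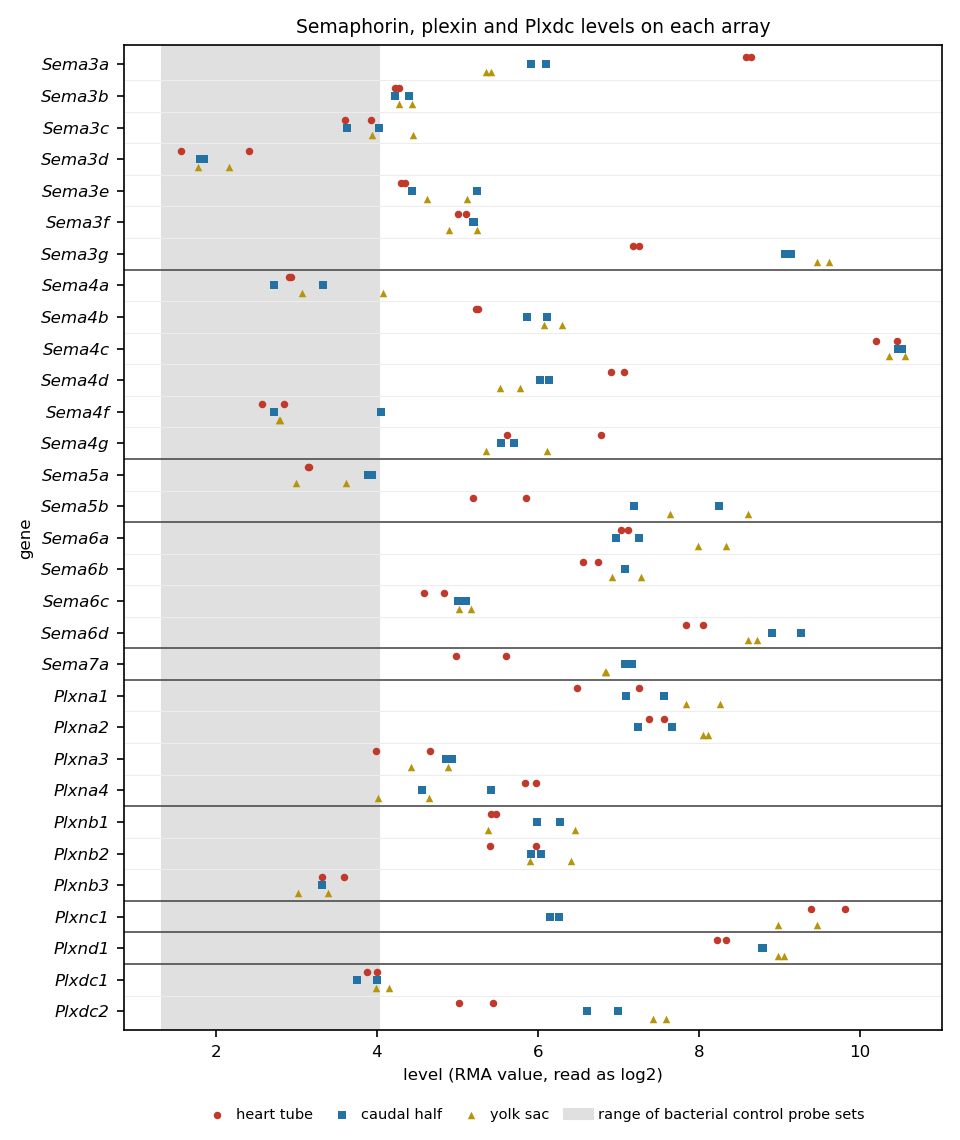
The level of each of the 31 genes on each array, on the scale of RMA values read as log2, with 2 points per tissue (red circles heart tube, blue squares caudal-half cells, yellow triangles yolk sac) and grey for the range of the bacterial control probe sets. Lines part the classes, and tissues separate clearly for Sema3a, Sema3g, Sema7a, Plxnc1 and Plxdc2, whereas for most other genes the points lie together.

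**Figure D2:**
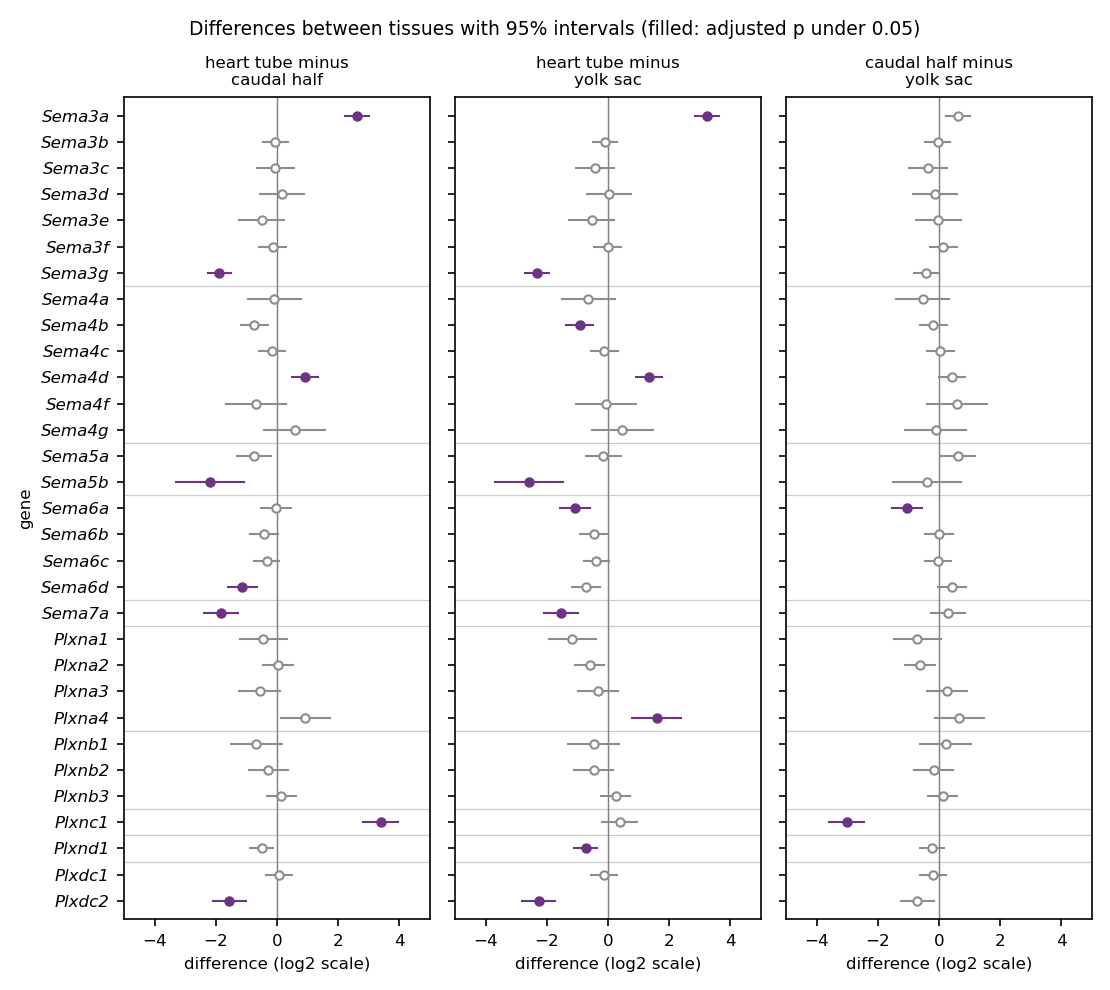
Differences between tissue means on the log2 scale for the 31 genes in the 3 comparisons, with 95% intervals from the limma fit that are not adjusted for the number of genes. Filled points are the 8, 10 and 2 differences with an adjusted p under 0.05, and Plxnc1 stands out in the comparisons that involve the caudal-half cells.

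The promoters of some genes with clear differences were read from RefSeq sequence on GRCm38.p6 to show what lies before their starts. Promoters were held for 24 of the 31 genes (35 starts), and Plxdc2, which also differed clearly, was not among them. The 250 bases before each start are given on the gene's strand, and capitals mark matches on either strand to the ETS motif GGAAGT, to the NFAT core GGAAAA and to the T-box site AGGTGTG. The GATA motif AGATAA, the E-box CANNTG and the GC box GGGCGG were searched too, on both strands, and no marked matches overlap. Sema3a was high in the heart tube, and Sema3g and Sema7a were low there. Plxnc1 was low in the caudal-half cells and was not called between heart tube and yolk sac.
Sema3a, chr5:13396534-13396783, plus strand: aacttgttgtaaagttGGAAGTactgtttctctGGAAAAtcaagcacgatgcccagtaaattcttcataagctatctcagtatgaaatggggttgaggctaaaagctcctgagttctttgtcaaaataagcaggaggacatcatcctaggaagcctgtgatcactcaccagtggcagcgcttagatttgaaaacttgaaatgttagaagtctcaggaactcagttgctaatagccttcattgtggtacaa
Plxnc1, chr10:94944846-94945095, minus strand: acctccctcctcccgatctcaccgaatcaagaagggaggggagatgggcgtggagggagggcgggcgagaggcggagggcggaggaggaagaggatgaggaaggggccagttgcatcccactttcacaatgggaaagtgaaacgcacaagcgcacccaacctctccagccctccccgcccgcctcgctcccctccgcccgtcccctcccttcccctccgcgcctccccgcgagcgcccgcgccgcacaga
Sema3g, chr14:31217623-31217872, plus strand: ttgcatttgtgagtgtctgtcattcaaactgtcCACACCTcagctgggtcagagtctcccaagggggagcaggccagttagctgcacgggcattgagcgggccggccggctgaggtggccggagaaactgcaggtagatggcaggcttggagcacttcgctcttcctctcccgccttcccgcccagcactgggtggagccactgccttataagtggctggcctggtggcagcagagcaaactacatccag
Sema7a, chr9:57939862-57940111, plus strand: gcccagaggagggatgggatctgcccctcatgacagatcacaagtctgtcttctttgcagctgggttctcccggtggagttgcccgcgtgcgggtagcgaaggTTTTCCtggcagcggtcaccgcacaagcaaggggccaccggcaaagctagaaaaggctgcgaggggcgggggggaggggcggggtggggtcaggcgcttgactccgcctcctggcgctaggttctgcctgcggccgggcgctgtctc
The Sema3a stretch held 2 CpG and 40.8% G and C, with an ETS match at bases -234 to -229 from the start and an NFAT match at -217 to -212. The Plxnc1 stretch held 22 CpG at 68.8% G and C and none of the motifs in capitals, and the Sema7a stretch 17 CpG at 66.4%, with an NFAT match on the reverse strand. Sema3g had 8 CpG, 60.4% G and C and a T-box match on the reverse strand. The median over all 32851 promoters of the table was 6 CpG and 52.4%. ETS matches were found in 7 of the 35 member promoters (19.7% of all promoters), NFAT matches in 4 (20.4%), T-box matches in 3 (5.10%) and GATA matches in none (9.99%). E-boxes were in 19 (66.2%) and GC boxes in 25 (32.7%). A match describes the letters of this window only.

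Among the secreted class 3 ligands, Sema3a and Sema3g moved in opposite directions in the heart tube. Sema3a repels axons and neural crest cells through neuropilin 1 and A-type plexins. It read 8.59 and 8.65 in heart tube cells, 5.91 and 6.10 in caudal-half cells and 5.35 and 5.41 in yolk sac cells. Both heart tube arrays lay above all others. The heart tube was higher by 2.61 ± 0.16 (SE) than the caudal-half cells and by 3.24 ± 0.16 than the yolk sac (limma adjusted p = 0.000729 and 0.000217). The difference between caudal-half cells and yolk sac was 0.62 and missed the threshold (limma adjusted p = 0.0703). Its other 2 probe sets were called too between heart tube and caudal-half cells (1.73 and 1.91). The dimmest of the 3 parted from the brightest elsewhere. For heart tube minus yolk sac it gave 0.80 (limma adjusted p = 0.0940 when every named probe set is tested), and for caudal-half cells minus yolk sac -1.10 (limma adjusted p = 0.0466 in that fit). Cardiomyocyte markers were also higher in the heart tube, in 5 of 10 against the caudal-half cells and 7 of 10 against the yolk sac. Of the 8 mesenchymal markers, 4 were higher and none lower than in the caudal-half cells, and 2 (Pdgfra and Tcf21) were higher and 4 lower than in the yolk sac. Of the 8 neural markers, Tubb3 was higher in both comparisons (4.29 and 4.88), whereas Sox2 was lower in both (-5.36 and -1.76) and Nes lower than in the caudal-half cells (-0.84). Of the 4 measured neural crest markers 1 was higher, namely Erbb3 (3.57 and 3.85), while Foxd3 and Tfap2b of the neural crest list were within the bacterial range on all arrays. Their part in the Sema3a difference was not tested.

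Sema3g is a secreted ligand made by endothelium, mainly of arteries, that binds neuropilin 2. Its levels were 7.18 and 7.26 in heart tube cells, 9.14 and 9.08 in caudal-half cells and 9.46 and 9.62 in yolk sac cells. No array of one tissue overlapped with another tissue. The difference in the heart tube was -1.89 ± 0.16 against the caudal-half cells and -2.32 ± 0.16 against the yolk sac (limma adjusted p = 0.00196 and 0.000524). Caudal-half cells and yolk sac differed by -0.43 (95% interval -0.82 to -0.04, limma adjusted p = 0.169). Sema3g has 1 probe set only. Of the 12 endothelial markers, 5 were called lower in the heart tube than the caudal-half cells and 1 (Eng, 0.96) higher. Against the yolk sac 6 were called lower and 0 higher. The lower ones included Cldn5 (-3.40 and -3.54) and Robo4 (-2.31 and -2.87), whereas Tek, a receptor of angiopoietins, was not called against either tissue. The part of the endothelial markers in the Sema3g difference was not tested.

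The remaining class 3 ligands passed no test. Sema3b lay at 4.22 to 4.44, Sema3f at 4.90 to 5.25 and Sema3d, within the bacterial range, at 1.57 to 2.41. Sema3c, a ligand needed for the septation of the cardiac outflow tract, read 3.93 and 3.61 in heart tube cells, 3.64 and 4.03 in caudal-half cells and 3.94 and 4.45 in yolk sac cells. Of these arrays 4 of 6 were within the bacterial range. The caudal-half cells overlapped with both other tissues, and both heart tube arrays lay below the yolk sac arrays. Sema3e, the ligand of Plxnd1, read 4.30 and 4.36 in heart tube cells, 5.25 and 4.43 in caudal-half cells and 4.62 and 5.12 in yolk sac cells. Its heart tube arrays were the lowest, but the differences of -0.51 ± 0.31 and -0.54 ± 0.31 missed the threshold (95% intervals -1.25 to 0.23 and -1.28 to 0.20), and its other 3 probe sets were dim. Sema3d, Sema3a, Sema3e and Sema3c lie in this order on chromosome 5, with 0, 3 and 15 protein-coding genes between neighbours in the RefSeq gene table. Of these 4 genes, Sema3a was called and the others were not.

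Of the 6 class 4 ligands, Sema4d was higher and Sema4b lower in the heart tube. Sema4d, known as CD100, is a ligand of Plxnb1. It was measured at 6.91 and 7.07 in heart tube cells, 6.14 and 6.02 in caudal-half cells and 5.78 and 5.53 in yolk sac cells. The 3 tissues did not overlap, with the heart tube on top. Sema4d was higher in the heart tube by 1.33 ± 0.18 than the yolk sac (limma adjusted p = 0.00588) and by 0.91 ± 0.18 than the caudal-half cells (limma adjusted p = 0.0389). The second of these calls was lost without any single heart tube or caudal-half array (limma adjusted p up to 0.187). It was also lost in limma with the replicate number as a block (adjusted p = 0.0694) and with every named probe set tested (0.0523). An intensity trend in the variance prior lost it too (limma adjusted p = 0.05). Averaging the 3 probe sets of Sema4d lost this call (limma adjusted p = 0.259) and the call against the yolk sac (0.0790). Its second probe set, above the bacterial range, gave 0.46 against the caudal-half cells and 0.32 against the yolk sac and passed neither test. The dimmest is within the bacterial range.

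Sema4b read 5.24 and 5.26 in heart tube cells, 6.12 and 5.87 in caudal-half cells and 6.30 and 6.07 in yolk sac cells. Both heart tube arrays were below the other 4. It was called against the yolk sac (-0.94 ± 0.18, limma adjusted p = 0.0218) and missed the threshold against the caudal-half cells (-0.74, limma adjusted p = 0.0739). Without either heart tube array or the first yolk sac array the call was lost (limma adjusted p up to 0.113), as it was with the mean of both probe sets (0.0517). Sema4c, a ligand of Plxnb2, was nearly level at 10.20 to 10.56 on all arrays. Its difference between heart tube and caudal-half cells was -0.17, with a 95% interval from -0.60 to 0.27. Sema4g spread more between replicates, at 6.78 and 5.62 in heart tube cells, 5.55 and 5.71 in caudal-half cells and 6.12 and 5.36 in yolk sac cells, and passed no test. Sema4a (2.72 to 4.08) and Sema4f (2.58 to 4.06) were within the bacterial range on 5 of 6 arrays each.

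Class 5 semaphorins carry thrombospondin repeats beside the sema domain. Sema5b, which acts on Plxna1 and Plxna3 in the retina, read 5.86 and 5.20 in heart tube cells, 8.25 and 7.19 in caudal-half cells and 8.61 and 7.64 in yolk sac cells. The heart tube arrays were the lowest; replicates of 1 tissue lay far apart. The differences were -2.20 ± 0.47 against the caudal-half cells and -2.60 ± 0.47 against the yolk sac (limma adjusted p = 0.0491 and 0.0167). The first was lost without any single heart tube or caudal-half array (limma adjusted p up to 0.213), the second without either heart tube array or the first yolk sac array (up to 0.0945). Its second probe set gave differences of -0.94 and -0.56 and passed neither test. Sema5a lay at 2.99 to 3.94, within the bacterial range.

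Of the 4 class 6 ligands, Sema6a and Sema6d were called. Sema6a binds Plxna2 and Plxna4. It read 7.03 and 7.12 in heart tube cells, 6.97 and 7.25 in caudal-half cells and 8.33 and 7.99 in yolk sac cells. Heart tube and caudal-half cells overlapped (difference -0.04, 95% interval -0.52 to 0.44), and both yolk sac arrays were above them. The heart tube was lower than the yolk sac (-1.09 ± 0.20, limma adjusted p = 0.0182), and so were the caudal-half cells (-1.05 ± 0.20, limma adjusted p = 0.0256). Of its 3 probe sets, 1 was called lower in the caudal-half cells than in the yolk sac. All 3 were called lower in heart tube cells than in the yolk sac. The brightest dropped out without either array of the heart tube or the first yolk sac array (limma adjusted p up to 0.104). The other call was lost without any single array except the second yolk sac array (up to 0.122). Visceral endoderm markers (8 of 8) were called lower in heart tube and caudal-half cells than in the yolk sac, and their part in the Sema6a difference was not tested.

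Sema6d, which acts through Plxna1 in the morphogenesis of the chick heart, was lower in the heart tube than the caudal-half cells. Its levels were 7.84 and 8.05 there, 8.91 and 9.26 in the caudal-half cells and 8.72 and 8.60 in the yolk sac. Against the caudal-half cells the heart tube was lower by a difference of -1.14 ± 0.19 (limma adjusted p = 0.0240). The yolk sac comparison missed the threshold (-0.72, limma adjusted p = 0.0651). For heart tube minus caudal-half cells the 4 probe sets gave differences from -1.58 to -0.64, and 2 of them were called. For heart tube minus yolk sac they gave -0.72 to 0.04, and none was called. The call of the brightest was lost without any single heart tube or caudal-half array (limma adjusted p up to 0.147). Sema6b (6.56 to 7.28) and Sema6c (4.59 to 5.16) passed no test.

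Sema7a, the membrane-anchored ligand of Plxnc1 that also engages the integrin of Itga1 and Itgb1, was low in the heart tube. It read 4.98 and 5.60 in heart tube cells, 7.17 and 7.08 in caudal-half cells and 6.83 and 6.84 in yolk sac cells. The heart tube arrays lay below the other 4. The differences were -1.84 ± 0.23 against the caudal-half cells and -1.55 ± 0.23 against the yolk sac (limma adjusted p = 0.00813 and 0.00885). Caudal-half cells and yolk sac differed by 0.29 (95% interval -0.27 to 0.85). The call against the caudal-half cells was lost without the first caudal-half array (limma adjusted p = 0.0613). The second probe set, near the bacterial range, had differences of -1.35 and -0.50 and was not called.

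The A-type plexins, which serve class 3 ligands together with neuropilins and class 6 ligands alone, gave 1 call among 4 genes, for Plxna4 between heart tube and yolk sac. In that comparison 11.8% of all genes were called. An unadjusted p under 0.05 in limma was found there for 3 of the 4, beside 4734 of all 18193 genes. Plxna4 was higher in the heart tube, and the others with such a p, Plxna1 and Plxna2, were lower. Plxna4 read 5.98 and 5.84 in heart tube cells, 4.56 and 5.42 in caudal-half cells and 4.01 and 4.64 in yolk sac cells. The heart tube arrays were on top. The difference was 1.58 ± 0.34 against the yolk sac (limma adjusted p = 0.0299) and 0.92 against the caudal-half cells (limma adjusted p = 0.205). The call was lost without either heart tube array or the first yolk sac array (limma adjusted p up to 0.140) and with the mean of both probe sets (0.0620). The second probe set of Plxna4 gave 0.19 against the yolk sac and passed no test. Plxna2 read 7.56 and 7.38 in heart tube cells, 7.67 and 7.24 in caudal-half cells and 8.05 and 8.11 in yolk sac cells. Heart tube and caudal-half cells overlapped, and the yolk sac was above both without a call (-0.61 and -0.63, limma adjusted p = 0.114 and 0.116). Of its 4 probe sets, 1 was called lower in heart tube cells than in the yolk sac (-1.26), and so was their mean (-0.60, limma adjusted p = 0.0399). Plxna1 was at 6.49 and 7.26 in heart tube cells, 7.10 and 7.57 in caudal-half cells and 8.26 and 7.84 in yolk sac cells, with a difference of -1.17 ± 0.32 between heart tube and yolk sac that missed the threshold (limma adjusted p = 0.0652). Plxna3 lay at 3.99 to 4.94.

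None of the B-type plexins, the receptors of class 4 ligands, was called in this limma fit, and none had an unadjusted p under 0.05 in any comparison. Among all 18193 genes, 3556, 4734 and 4337 had such a p in the 3 comparisons. Plxnb1, the receptor of Sema4d, read 5.42 and 5.48 in heart tube cells, 6.27 and 6.00 in caudal-half cells and 6.47 and 5.38 in yolk sac cells. Its second probe set was tighter between the yolk sac replicates (5.09 and 4.86) and wider between those of the heart tube (5.27 and 5.73). That probe set was higher in the caudal-half cells than in the yolk sac (1.47, limma adjusted p = 0.0165 when every named probe set is tested). The probe sets of Plxnb1 therefore disagree on the yolk sac. Plxnb2 lay at 5.40 to 6.41 and Plxnb3, within the bacterial range, at 3.02 to 3.59.

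Plxnc1, the receptor of Sema7a, showed the widest separation of the receptors. It read 9.81 and 9.39 in heart tube cells, 6.16 and 6.26 in caudal-half cells and 9.47 and 8.98 in yolk sac cells. Heart tube and yolk sac overlapped, and both caudal-half arrays were far below them. It was higher in heart tube than in caudal-half cells by 3.39 ± 0.24 (limma adjusted p = 0.00108). The caudal-half cells were lower than the yolk sac, with a difference of -3.02 ± 0.24 (limma adjusted p = 0.00135). Heart tube and yolk sac differed by 0.38, with a 95% interval from -0.20 to 0.95 (limma adjusted p = 0.377). Both calls held whichever array was left out (limma adjusted p up to 0.0139 and 0.0176). Of the 6 probe sets, 5 were called in both comparisons, with differences from 2.65 to 3.52 against the caudal-half cells and from -3.17 to -2.82 for caudal-half cells against yolk sac. The dimmest had 1.28 and -1.05 and was not called. Mesenchymal markers were also low in the caudal-half cells, where 4 of 8 were below the heart tube and 5 of 8 below the yolk sac, with 2 of 8 above it. Among them were Col3a1 (3.53 for heart tube minus caudal-half cells, and -2.64 for caudal-half cells minus yolk sac) and Col1a2 (2.21 and -3.52). The endothelial marker Eng was lower in the caudal-half cells as well, with differences of 0.96 and -0.84 in the same order. Of the 12 endothelial markers, however, 5 were called lower in the heart tube than the caudal-half cells and only Eng higher, and in the caudal-half cells 1 (Emcn, 1.32) was above the yolk sac and 3 were below it. Their part in the Plxnc1 difference was not tested.

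**Figure D3:**
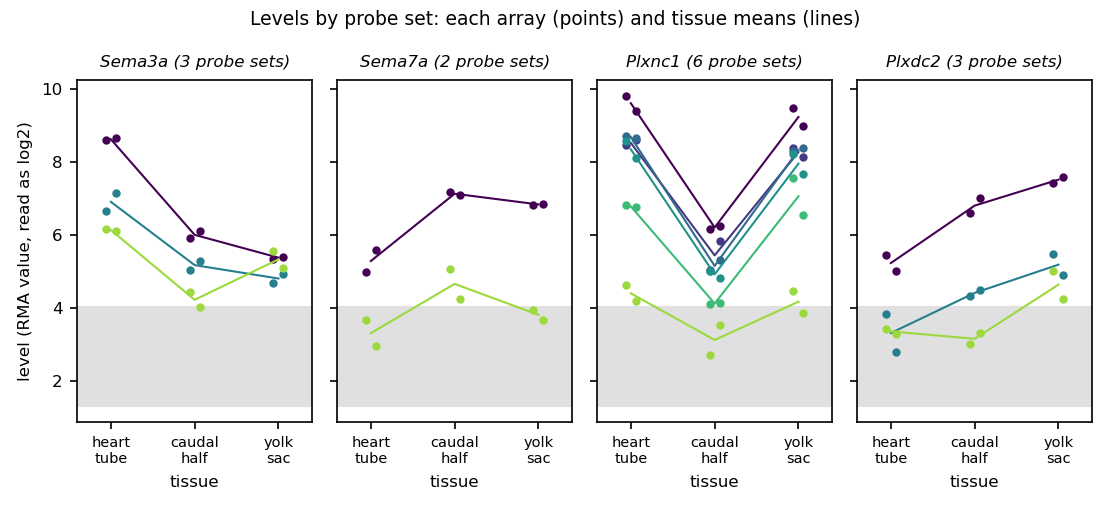
Levels of Sema3a, Sema7a, Plxnc1 and Plxdc2 by probe set in the 3 tissues, as RMA values read as log2. Points are single arrays, lines join the tissue means of a probe set, and grey is the range of the bacterial control probe sets; all 6 Plxnc1 probe sets dip in the caudal-half cells, and the dimmest Sema3a probe set parts from the other 2 in the yolk sac.

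Plxnd1, the plexin of endothelium that binds Sema3e and other ligands, was lower in the heart tube than the yolk sac. It read 8.22 and 8.34 in heart tube cells, 8.80 and 8.78 in caudal-half cells and 8.98 and 9.06 in yolk sac cells. The tissues did not overlap. The difference between heart tube and yolk sac was -0.74 ± 0.16 (limma adjusted p = 0.0306), and this call was lost whichever of the 6 arrays was left out (limma adjusted p up to 0.158) and with the replicate number as a block (0.0508). Against the caudal-half cells the difference of -0.51 missed the threshold (95% interval -0.89 to -0.13, limma adjusted p = 0.144).

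Plxdc2, a membrane protein with a plexin-type domain that has been described as a receptor of the secreted factor Serpinf1, was lower in the heart tube. It read 5.44 and 5.03 in heart tube cells, 6.61 and 6.999 in caudal-half cells and 7.43 and 7.60 in yolk sac cells. The tissues did not overlap. The differences were -2.28 ± 0.23 against the yolk sac and -1.57 ± 0.23 against the caudal-half cells (limma adjusted p = 0.00187 and 0.0134). The first held whichever array was left out, and all 3 probe sets were called lower than in the yolk sac. The second was lost without the second heart tube or the second caudal-half array (limma adjusted p up to 0.0808) and with the mean of the probe sets (0.110), 1 of which is dim and had a difference of 0.20. Plxdc1, known as tumor endothelial marker 7, lay at 3.75 to 4.15 and passed no test.

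Set beside their receptors, the ligands followed no single pattern across tissues. Sema7a was lowest in the heart tube, at 5.29 ± 0.44 (SD, n = 2), 7.13 ± 0.06 and 6.84 ± 0.01 in the heart tube, the caudal-half cells and the yolk sac, whereas its receptor Plxnc1 was lowest in the caudal-half cells (9.60 ± 0.30, 6.21 ± 0.07 and 9.22 ± 0.35 in the same order). Sema3a was higher in the heart tube, where its receptor Plxna4 was higher than in the yolk sac and its co-receptor Nrp1 lower. Its receptors Plxna1 and Plxna2 were lower there than in the yolk sac, without a call at the brightest probe set. Sema3g and its co-receptor Nrp2 were both lower in the heart tube than in each of the other tissues. Sema4d was higher in the heart tube, and Plxnb1 passed no test. The yolk sac was above the heart tube for Sema6a and, without a call at the brightest probe set, for Plxna2, and below it for Plxna4. For Sema3e and Plxnd1 the heart tube was lowest in both, with a call for Plxnd1 against the yolk sac only. These genes share the same arrays, and no relation between them was tested.

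The wider pathway was read from 45 co-receptors, other binding partners and intracellular effectors, of which 44 were measured. Against the caudal-half cells 3 were higher and 1 lower in the heart tube, against the yolk sac 8 were higher and 6 lower, and in the caudal-half cells 2 were higher and 5 lower than in the yolk sac. That is 9.09%, 31.8% and 15.9% of the list, beside 5.51%, 11.8% and 9.08% of all genes. The list's median differences were 0.02, -0.19 and -0.24.

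Neuropilins are the co-receptors of class 3 ligands and bind VEGF as well. Nrp2 read 8.71 and 8.80 in heart tube cells, 10.11 and 10.33 in caudal-half cells and 10.55 and 10.77 in yolk sac cells. The heart tube stood apart from both, with differences of -1.46 ± 0.18 and -1.90 ± 0.18 (limma adjusted p = 0.00720 and 0.00152). The first was lost without the first heart tube array (limma adjusted p = 0.0599). Nrp1 read 9.37 and 9.38 in heart tube cells, 9.68 and 9.75 in caudal-half cells and 10.17 and 10.29 in yolk sac cells. Its 3 tissues did not overlap, and it was called only between heart tube and yolk sac (-0.85 ± 0.16, limma adjusted p = 0.0191), a call lost without any single heart tube or yolk sac array (up to 0.104). Kdr, the VEGF receptor that is also on the endothelial list and can associate with plexin complexes, was lower in heart tube cells than in the yolk sac (-1.34 ± 0.25, limma adjusted p = 0.0209). It lost this call without the first heart tube or the second yolk sac array (up to 0.114).

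Other surface partners set the yolk sac apart. Timd2, a mouse receptor of Sema4a and of ferritin, read 3.25 and 2.91 in heart tube cells, 3.03 and 3.62 in caudal-half cells and 6.59 and 6.21 in yolk sac cells. It was within the bacterial range in both embryonic tissues, so its differences of -3.32 and -3.07 against the yolk sac (limma adjusted p = 0.000842 and 0.00191) depend on a weak signal. Visceral endoderm markers (8 of 8) were called lower in heart tube and caudal-half cells than in the yolk sac, and their part in the Timd2 difference was not tested. Serpinf1, the secreted factor that binds Plxdc proteins, read 9.78 and 9.93 in heart tube cells, 9.01 and 9.16 in caudal-half cells and 7.94 and 8.08 in yolk sac cells, in the reverse order of Plxdc2. It was higher than in the yolk sac by 1.85 ± 0.17 in the heart tube and by 1.08 ± 0.17 in the caudal-half cells (limma adjusted p = 0.00138 and 0.0137). The second call was lost without either caudal-half array or the first yolk sac array (up to 0.0729). Itga1, the integrin subunit engaged by Sema7a, was lower in the caudal-half cells than in the yolk sac (-0.95 ± 0.19, limma adjusted p = 0.0313), a call lost whichever array was left out (up to 0.136).

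The intracellular effectors held the largest difference of the pathway. Rnd2, a small GTPase whose relatives bind the cytoplasmic part of plexins, read 10.57 and 10.53 in heart tube cells, 5.93 and 6.00 in caudal-half cells and 7.46 and 7.63 in yolk sac cells. All 3 tissues were far apart. Rnd2 was higher in the heart tube by 4.59 ± 0.16 and 3.01 ± 0.16, and the caudal-half cells were lower than the yolk sac with a difference of -1.58 ± 0.16 (limma adjusted p = 0.000127, 0.000234 and 0.00337). Mical2, of the MICAL enzymes that oxidise actin downstream of plexins, read 10.32 and 10.22 in heart tube cells, 6.48 and 6.21 in caudal-half cells and 6.75 and 7.15 in yolk sac cells. It was higher in the heart tube by 3.93 ± 0.21 and 3.32 ± 0.21 (limma adjusted p = 0.000458 and 0.000315). These calls for Rnd2 and Mical2 held whichever array was left out. Cardiomyocyte markers were higher in the heart tube in 5 and 7 of 10. In the caudal-half cells 1 of them was higher than in the yolk sac and 0 were lower. Of the 8 mesenchymal markers, 4 and 2 were higher in the heart tube, and 0 and 4 were lower. Of the 8 neural markers, Tubb3 was higher (4.29 and 4.88), and 2 and 1 were lower. Of the 4 measured neural crest markers, Erbb3 was higher (3.57 and 3.85). The part of these markers in the Rnd2 and Mical2 differences was not tested.

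Among the collapsin response mediator proteins, which relay Sema3a signals to microtubules, Dpysl3 was higher in the heart tube and Crmp1 low in the yolk sac. Dpysl3 read 9.92 and 10.12 in heart tube cells, 8.29 and 8.64 in caudal-half cells and 8.58 and 8.90 in yolk sac cells, with differences of 1.56 ± 0.21 and 1.28 ± 0.21 (limma adjusted p = 0.0106 and 0.0119). The first was lost without either heart tube array or the first caudal-half array (up to 0.0761), the second without either heart tube array or the first yolk sac array (up to 0.0781). Crmp1 read 8.08 and 8.32 in heart tube cells, 8.94 and 8.83 in caudal-half cells and 6.30 and 6.90 in yolk sac cells. It was higher than in the yolk sac by 1.60 ± 0.24 in the heart tube (limma adjusted p = 0.00862) and by 2.28 ± 0.24 in the caudal-half cells (limma adjusted p = 0.00359). The heart tube call was lost without the second heart tube array (0.0594). Of the neural markers, Sox2 (3.61) and Nes (0.77) were higher in the caudal-half cells than in the yolk sac as well, and Tubb3 was higher in heart tube cells than in the yolk sac (4.88). In that comparison Sox2 was lower (-1.76), and Nes was not called (-0.07). Sox1, Dcx and Neurog2 were within the bacterial range in all 3 tissues. The part of these markers in the Crmp1 difference was not tested.

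Rnd3, another small GTPase of this group, was lower in heart tube cells (-1.26 ± 0.19) and caudal-half cells (-1.56 ± 0.19) than it was in the yolk sac, with limma adjusted p of 0.00881 and 0.00575. The heart tube call was lost without the second heart tube array (0.0622). Mical1 was higher in heart tube cells than in the yolk sac by 1.08 ± 0.25 (limma adjusted p = 0.0425), and this was lost without any single array except the second yolk sac array (up to 0.172). The kinase gene Fyn was lower in heart tube cells than in the yolk sac (-0.79 ± 0.18, limma adjusted p = 0.0352), and Arhgef11, a guanine nucleotide exchange factor bound by B-type plexins, was lower in the caudal-half cells than in the yolk sac (-0.77 ± 0.16, limma adjusted p = 0.0352). Both lost their calls whichever array was left out (up to 0.181 and 0.143), with the replicate number as a block (0.0535 and 0.0605) and with the mean of the probe sets (0.0517 and 0.0538).

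**Figure D4:**
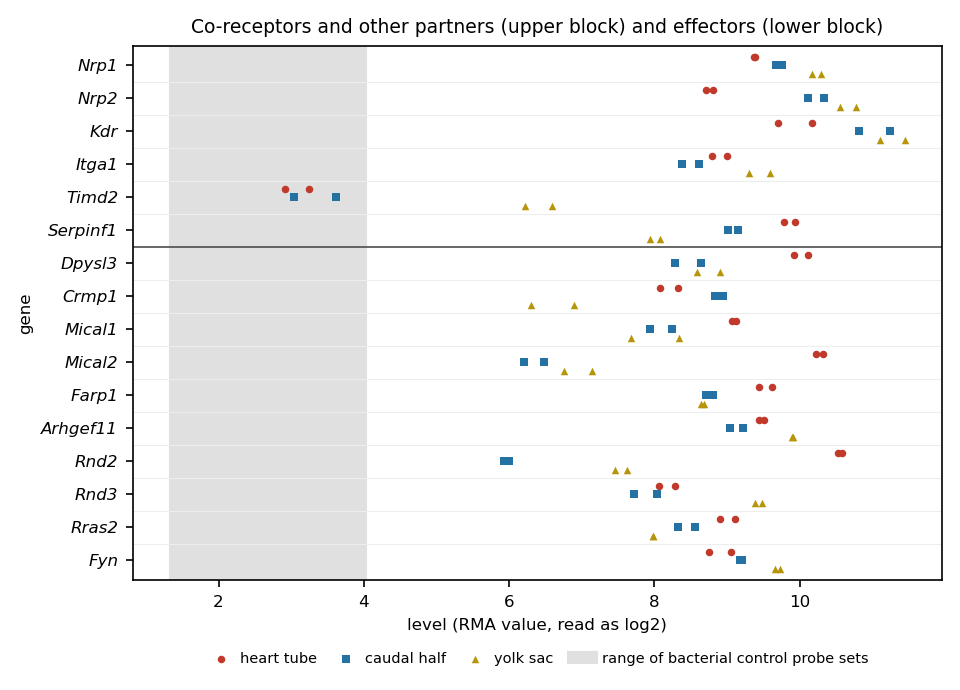
Levels on each array of the 16 partner genes called in at least 1 comparison, as RMA values read as log2, with co-receptors and other surface or secreted partners above the line and effectors below it (red circles heart tube, blue squares caudal-half cells, yellow triangles yolk sac, grey the bacterial range). Rnd2 and Mical2 lie far higher in the heart tube, and Timd2 leaves the bacterial range only in the yolk sac.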

How the data were processed

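RNA of 6 samples of sorted CD31+/CD41-/CD45- cells (3 tissues, 2 biological replicates each) was measured on Affymetrix mouse arrays. Per the submitters' processing notes, the deposited signal of each probe set comes from RMA (affy). Their versions and the chip definition are not stated there. The natural log of that signal ran from 0.90 to 14.6 and was read as RMA log2, a choice on which every size depends.

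Of 45101 probe sets, 64 were controls and 34945 others carried 1 symbol in the platform annotation. The brightest per gene gave 18193 genes. A mean per tissue was estimated over all 6 arrays by limma 3.58.1 (R 4.3.3; lmFit, eBayes) without covariates (3 residual and 3.48 prior degrees of freedom), tested two-sided and adjusted by Benjamini-Hochberg over all genes. The fit was tested on simulated data. The number of arrays (2 per tissue) limits the precision, and the median SE of a difference was 0.21. Intervals are at 95%.

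Groups follow the sample titles. Members, partner and marker lists were chosen with earlier results of these data known. Members called anywhere are given on every array, with Plxnd1, Sema3e, Sema3c and Plxna2 whatever their result, and of the partners at most 6 per comparison and direction by size, with Nrp1 and Nrp2 always. A few genes of the lists are not reported here. Alternatives were leaving out each array, the replicate number as a block, the mean of a gene's probe sets, all named probe sets tested together, leaving out dim genes, centring each array, an intensity trend and log2 of the deposited signal. Promoters were taken from RefSeq on GRCm38.p6.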

Additional observations from a re-analysis of the deposited data

How the results depend on the processing

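Of the 20 calls made for semaphorin, plexin and Plxdc genes, 9 held whichever array was left out and 11 did not. A tissue left with 1 array was then assumed to vary like the others. Without single arrays, the members called ranged from 4 to 8 between heart tube and caudal-half cells, from 5 to 9 between heart tube and yolk sac and from 1 to 2 between caudal-half cells and yolk sac. The partner genes called ranged over 2 to 5 (heart tube and caudal-half cells), 6 to 12 (heart tube and yolk sac) and 4 to 5 (caudal-half cells and yolk sac). All genes called ranged over 376 to 899 (heart tube and caudal-half cells), 936 to 1794 (heart tube and yolk sac) and 638 to 1155 (caudal-half cells and yolk sac). Averaging the probe sets of each gene, 4 members were called between caudal-half cells and yolk sac (2 as reported, and 3 without dim genes) and 7 partner genes between heart tube and caudal-half cells (4 as reported), while all genes called there were 1921 (1652 as reported) and 1192 (1002 as reported). With an intensity trend in the variance prior, 8 partner genes were called between heart tube and caudal-half cells and 12 between caudal-half cells and yolk sac (7 as reported), while all genes called were 1378 and 2396. The cause was not tested. Differences that were never called turned sign under some settings. For Sema3c between heart tube and caudal-half cells the difference of -0.07 became 0.15 with the mean of its probe sets and ran from -0.27 to 0.13 without single arrays. For Plxna2 there, 0.02 became -0.13 with the mean of its probe sets and -0.015 with centred arrays, and ran from -0.19 to 0.23 without single arrays. For Sema3e between caudal-half cells and yolk sac, -0.03 ran from -0.44 to 0.38 without single arrays. The labels do not state whether samples with the same replicate number share a litter or batch. Over all genes, differences between replicates 1 and 2 correlated at -0.01 to 0.05 between tissues. With the replicate number as a block, 7, 9 and 2 members were called in the 3 comparisons (8, 10 and 2 without), and 776, 1876 and 1356 genes of all. Centring the arrays and log2 of the deposited signal left the members' counts at 8, 10 and 2.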
